A study of Mus musculus with 6 samples.

Results

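The 42 genes described here encode neuronal and synaptic cell adhesion molecules, and their messenger RNA was followed in dorsal root ganglia (DRGs) of control and Tlx3cko mice. They were picked by symbol as members of 11 families: 6 contactins, 4 contactin-associated proteins, 2 neurexins, 3 neuroligins, 4 LRRTMs, 5 genes of the Lrfn family, 6 of the Slitrk family, 2 NCAMs, 4 of the L1 family, 2 DSCAMs and 4 of the Cadm family. All 42 were matched to a row of the count table, and all 42 held at least 10 counts in total, as did 20006 genes of the 47937 rows in all. Total RNA of cervical, thoracic and lumbar ganglia was sequenced from 3 control mice (labelled wild type) and 3 Tlx3cko mice (Tlx3f/f;SNS-cre), all of strain C57BL/6 and about 2 months old. In Tlx3cko mice both copies of Tlx3, a homeobox transcription factor gene of sensory neurons, carry lox sites that are cut by Cre under the control of the gene of the sodium channel SNS (Nav1.8), which is active in most nociceptors from late embryonic life on. Cre of this kind is largely absent from glia and from many large myelinated neurons, and the samples are whole ganglia that hold all of these cells.

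Adhesion molecules of these families span the gap between neighbouring membranes. Neurexins sit on the presynaptic side and bind neuroligins and LRRTMs across the cleft, whereas Lrfn and Slitrk proteins bind receptor phosphatases of the presynaptic membrane. On myelinated axons, contactin 1 and the contactin-associated protein Cntnap1 join the axon to the glial form of neurofascin at the paranode, while Cntn2 and Cntnap2 gather potassium channels beside it. A DRG holds cell bodies, axons and their glia but few synapses, and many synaptic proteins made there are sent along the axon to its endings.

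The libraries held between 11458299 and 18775628 counts, and normalized counts below are counts scaled with edgeR's TMM factors to the mean effective library size of 14974185. Counts of Tlx3 itself, before scaling, were 1717, 1052 and 1475 in Tlx3cko DRGs, below the 1828, 2262 and 2433 of the controls. With TMM factors its log2 fold change was -0.459 (adjusted p = 0.0122 in edgeR's quasi-likelihood test). The sexes were not balanced: control replicates 1 and 2 carried 591 and 493 counts of the X-inactivation transcript Xist, while control replicate 3 and all Tlx3cko libraries carried at most 2, with 273 to 525 counts of the Y-linked Ddx3y. The adhesion genes called are therefore also given from a fit that has sex as a term. Controls of the behavioural work were Tlx3F/F littermates, whereas the sequenced controls are labelled wild type.

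Of the 42 adhesion genes, 8 were higher and 1 was lower in Tlx3cko DRGs at a Benjamini-Hochberg adjusted p under 0.05 in edgeR's quasi-likelihood test. The higher genes were Cntn1, Cntn2, Cntnap2, Ncam2, Nrcam, Nfasc, Dscaml1 and Cadm2, and the lower gene was Cadm1. This is 19.0% of the members higher, beside 1.69% of all genes tested, and 2.38% lower, beside 2.56% (in either direction 21.4% beside 4.25%). The members were chosen with earlier results of these data known, so these shares and those below are not read as an excess. In a sample of whole tissue, more cells of a type and more RNA per cell cannot be told apart. With sex as a term, 0 of the 8 higher genes stayed past the threshold, although all 9 called genes kept their direction. The median log2 fold change was 0.07 over the members and -0.0036 over all genes tested, and 24 of the 42 members (57.1%) had a positive value, beside 49.3% of all genes.

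The libraries of the genotypes did not overlap for 14 members that were higher (33.3%, beside 8.87% of all genes) and for 4 that were lower (9.52%, beside 10.8%). The members are long and well expressed genes, which are called more often in general. Their median span was 166 kb against 18.1 kb for all annotated genes tested. Among all tested genes that span over 100 kb and have a mean of at least 100 normalized counts, 4.79% were called higher and 5.65% lower; of the 20 members that meet both limits, 35.0% were called higher and 5.0% lower. Of the 33 members not called, 6 had an unadjusted p under 0.05, and 21 had a 95% interval of the fold change that stayed within 1.5-fold in both directions.

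Levels of different genes can be compared only per length, as CPM per kb, which are counts scaled to a common library size and divided by the length of the annotated exons. On that scale 14 members reached 10 or more and 7 stayed under 1. The most abundant were Cadm3 with 85.3, Cadm4 with 72.7 and L1cam with 69.8 on average over the 6 libraries. Cadm3 and Cadm4 are the pair of nectin-like proteins by which axons and Schwann cells hold to each other along the internode, and L1cam guides and bundles axons. They were followed by Cntn1 with 53.9, Cntn2 with 42.3, Cntnap1 with 41.0, Nlgn2 with 35.8, Cadm1 with 32.1, Nrxn2 with 26.0 and Nfasc with 22.8. At the other end, Lrrtm4 with 0.13 and Slitrk6 with 0.10 were close to absent. Taking the longest transcript in place of all exons as the length moved Cadm4 from rank 2 to rank 4 and left Cadm3 first. Cadm1 then went from rank 8 to rank 5 and Nrxn2 from rank 9 to rank 6, both above Cntn2 at rank 7. Summed over the 42 genes, the level was 596 to 627 in the control libraries and 652 to 681 in the Tlx3cko libraries, without overlap. Abundant genes weigh most in such a sum. Mean levels went from 44.5 to 63.4 for Cntn1 and from 36.7 to 47.8 for Cntn2, but from 35.7 to 28.4 for Cadm1. Of the 42 members, 24 had a positive log2 fold change, and the median was 0.07. Sums over other gene sets of this size were not compared.

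**Figure D1:**
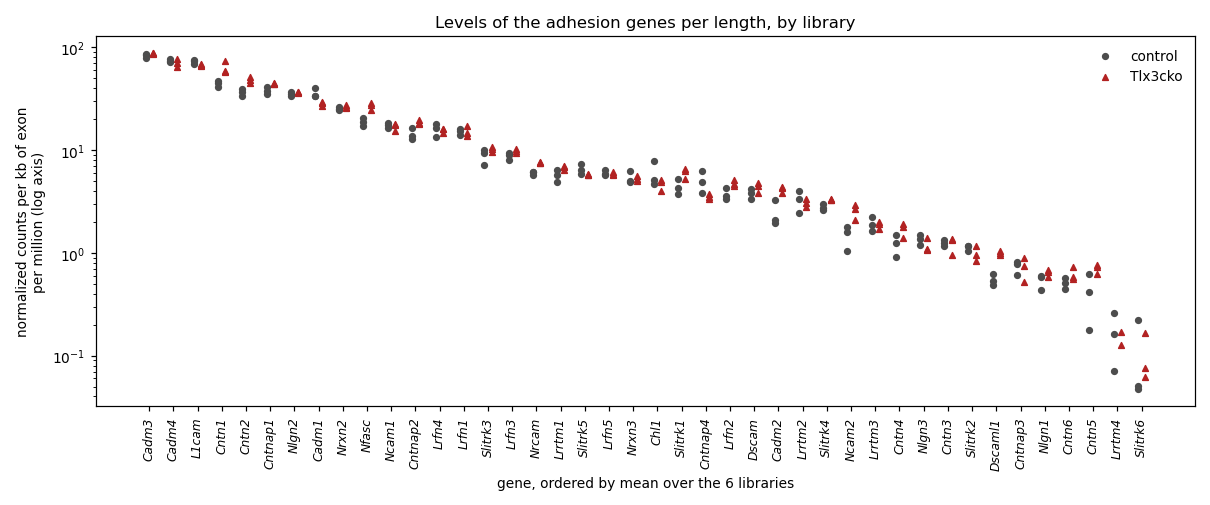
Level of each of the 42 adhesion genes (x axis, ordered by mean) in CPM per kb of exon (y axis, log scale); each point is 1 library, circles for control and triangles for Tlx3cko. Levels ran from 85.3 for Cadm3 to 0.10 for Slitrk6; Lrrtm4 had 0 counts in Tlx3cko replicate 2, which a log axis cannot show.

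The 6 members with a known place at the node of Ranvier and its flanks, Cntn1, Cntn2, Cntnap1, Cntnap2, Nfasc and Nrcam, are given first. They were put together by role after their values were seen, so no count over them is read as a result.

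Cntn1, the glycolipid-anchored axonal partner of Cntnap1 (chromosome 15, from 92051165 to 92341967, plus strand), had 6673, 5838 and 6330 normalized counts in the controls, against 10410, 8283 and 8163 in Tlx3cko DRGs. Every Tlx3cko library lay above every control library, with Tlx3cko replicate 1 highest. The means were 6280 ± 419.8 and 8952 ± 1264 (SD, n = 3), a log2 fold change of 0.51 (standard error, SE, 0.10, adjusted p = 0.0074).

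Nfasc, which encodes the neurofascins of the node and of the glial side of the paranode (chromosome 1, from 132564690 to 132741797, minus strand), had 4367, 3643 and 3958 normalized counts in the controls, against 5176, 5831 and 6054 in Tlx3cko DRGs. The groups were again separate, with means of 3989 ± 362.9 and 5687 ± 456.6. This is a rise of 0.51 on the log2 scale (SE 0.09, adjusted p = 0.0038). Neuronal and glial forms are counted together here.

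Cntn2, the contactin of the juxtaparanode and of growing axons (chromosome 1, from 132509427 to 132543256, minus strand), had 5109, 4729 and 5499 normalized counts in the controls, against 6628, 7142 and 6225 in Tlx3cko DRGs. All Tlx3cko libraries were higher, with a log2 fold change of 0.38 (SE 0.08, adjusted p = 0.0155). Cntn2 and Nfasc are next to each other on the same strand with 21.43 kb between them and no annotated gene in the gap.

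Cntnap2, the juxtaparanodal partner of Cntn2, spans 2245 kb of chromosome 6 (from 45059357 to 47304213, plus strand). It had 2490, 1972 and 2096 normalized counts in the controls, against 2805, 3015 and 2770 in Tlx3cko DRGs. The lowest Tlx3cko library stood above control replicate 1, the highest control, and the log2 fold change was 0.39 (SE 0.09, adjusted p = 0.0303).

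Nrcam, an L1-family protein that helps to cluster sodium channels at the node (chromosome 12, from 44328885 to 44601964, plus strand), had 1211, 1153 and 1216 normalized counts in the controls, against 1497, 1523 and 1496 in Tlx3cko DRGs. Libraries of 1 genotype were close to each other, and the log2 fold change of 0.33 (SE 0.08, adjusted p = 0.0275) was the smallest among the higher genes.

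Cntnap1, the paranodal member, did not pass the threshold. Its normalized counts were 3588, 3270 and 3063 in control and 3896, 3959 and 3888 in Tlx3cko libraries. The groups did not overlap, and the log2 fold change was 0.24 (SE 0.08, adjusted p = 0.113). It passed by the DESeq2 Wald test (adjusted p = 0.0478) and when control replicate 1 was left out (0.0439), and reached 0.311 at most over the 15 alternatives.

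The 250 bases upstream of the first RefSeq start of Cntn1, Cntn2 and Nfasc are shown because these are the higher genes of the axon-glia junction with the most counts, and because Cntn2 and Nfasc are neighbours. Sequences are RefSeq's on GRCm38.p6, given 5′ to 3′ on the strand of the gene, with CpG pairs in capitals. The stretches are chr15:92050915-92051164 (plus strand) for Cntn1, chr1:132542941-132543190 (minus strand) for Cntn2 and chr1:132707327-132707576 (minus strand) for Nfasc. For Cntn2 and Nfasc the stretch is upstream of the RefSeq start but inside the GENCODE gene, whose 5′ end is farther upstream.
Cntn1: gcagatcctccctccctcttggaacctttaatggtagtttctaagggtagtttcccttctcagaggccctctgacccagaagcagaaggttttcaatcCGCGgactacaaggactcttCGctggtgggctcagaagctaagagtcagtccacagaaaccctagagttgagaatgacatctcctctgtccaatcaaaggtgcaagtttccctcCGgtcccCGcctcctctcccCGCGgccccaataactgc
Cntn2: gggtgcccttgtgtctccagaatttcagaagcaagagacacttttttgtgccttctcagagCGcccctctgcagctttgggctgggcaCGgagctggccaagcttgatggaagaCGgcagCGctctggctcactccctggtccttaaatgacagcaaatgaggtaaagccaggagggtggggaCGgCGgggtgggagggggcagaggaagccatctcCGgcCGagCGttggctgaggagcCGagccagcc
Nfasc: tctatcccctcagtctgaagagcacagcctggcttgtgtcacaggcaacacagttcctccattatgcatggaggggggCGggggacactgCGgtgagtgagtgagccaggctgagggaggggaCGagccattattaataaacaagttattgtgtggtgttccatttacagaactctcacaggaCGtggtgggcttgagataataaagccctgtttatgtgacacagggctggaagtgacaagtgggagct
The Nfasc stretch held 4 CpG pairs and 52.0% G and C bases, Cntn1 7 pairs and 53.6%, and Cntn2 10 pairs and 61.2%. Promoters of the other higher genes ranged up to the 32 pairs of Ncam2, so base composition varied among the higher genes. Over the 31 members with an entry (43 starts) the median was 57.6% G and C, against 52.4% over 32851 starts. The letters TAATTA, a core that many homeodomain proteins bind and that reads the same on both strands, were found in 1 of the 43 stretches (2.33%) and in 4.84% of all stretches of that length. Cadm1 and Dscaml1 are not among the 31.

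**Figure D2:**
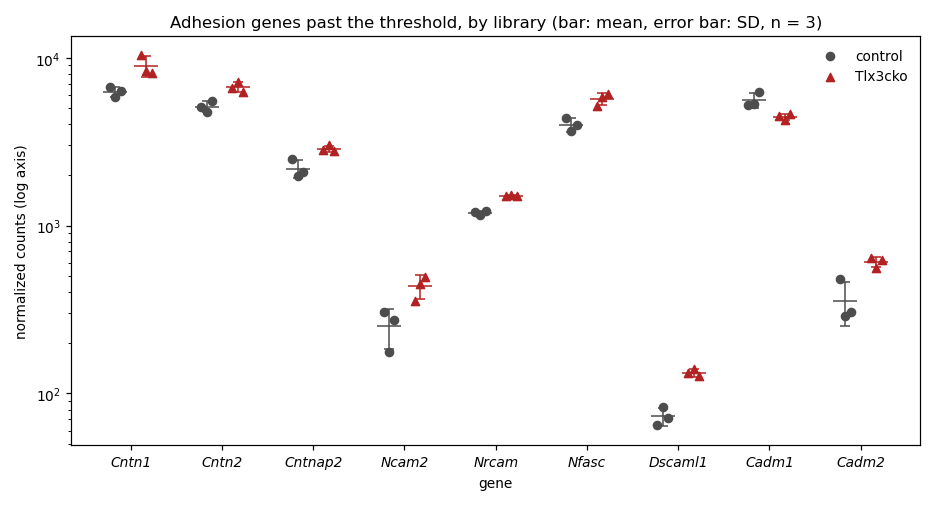
Normalized counts (y axis, log scale) of the 9 adhesion genes past the threshold (x axis); each point is 1 library, circles for control and triangles for Tlx3cko, with the mean as a bar and the SD as error bar (n = 3). The 3 Tlx3cko libraries lie above the 3 control libraries for 8 genes and below them for Cadm1.

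The other contactins were low in the DRG, between 0.56 and 1.45 CPM per kb, and none passed the threshold. Cntn5, a contactin of auditory circuits, had 28.1, 12.0 and 42.3 normalized counts in the controls, against 42.4, 49.9 and 52.2 in Tlx3cko DRGs. The highest control and the lowest Tlx3cko library were nearly level, and the log2 fold change of 0.79 carried an SE of 0.39 (adjusted p = 0.389). Cntn4 ranged from 117 to 190 in control and from 176 to 243 in Tlx3cko libraries, with a log2 fold change of 0.46 (SE 0.20, adjusted p = 0.29). Cntn6 (log2 fold change 0.28, SE 0.25) and Cntn3 (-0.05, SE 0.19) also overlapped. Cntn3, Cntn4 and Cntn6 lie within the same stretch of chromosome 6 as Chl1, with gaps of 743 to 938 kb between them.

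Of the remaining contactin-associated proteins, Cntnap4, which is known from inhibitory interneurons, had 589, 362 and 459 normalized counts in the controls, against 354, 327 and 312 in Tlx3cko DRGs. The Tlx3cko libraries were lower without overlap, but control replicate 2 stood close to them, and at -0.50 (SE 0.16) the log2 fold change missed the threshold (adjusted p = 0.114). Without control replicate 2 it was -0.66 and passed (adjusted p = 0.0299; 0.0049 to 0.48 over the 15 alternatives). Cntnap3 was low at 50.1 to 85.3 over all libraries and had a log2 fold change of -0.04 (SE 0.25).

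Neurexins and neuroligins, the central pair of synaptic adhesion, gave no call among 5 genes. Nrxn2 had 5463, 5237 and 5075 normalized counts in the controls, against 5700, 5364 and 5464 in Tlx3cko DRGs, with a log2 fold change of 0.07 (95% interval -0.08 to 0.22). Nlgn2, the neuroligin of inhibitory synapses, had 3204, 3013 and 2892 against 3209, 3173 and 3095, a log2 fold change of 0.06 (95% interval -0.10 to 0.21). For both genes the libraries overlapped, and the intervals leave room only for changes smaller than those of the called members.

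Nrxn3 spanned 925 to 1170 normalized counts over all libraries and had a log2 fold change of -0.02 (SE 0.11). Nlgn1, at 86.8 to 136, gave 0.24 (SE 0.19), and Nlgn3, at 147 to 206, gave -0.19 (SE 0.17). Nlgn3 is uncertain, since 41.2% of its exon bases are also annotated to Gm21986 on the same strand.

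Postsynaptic LRRTM messengers were low, and none of the 4 was called. Lrrtm1, the most abundant, had 258, 293 and 220 normalized counts in the controls, against 310, 315 and 290 in Tlx3cko DRGs, which overlapped by 1 library (log2 fold change 0.25, SE 0.14). Lrrtm2 (222 to 357) had a log2 fold change of -0.09 and Lrrtm3 (104 to 144) one of -0.05, with SEs of 0.17 and 0.19. Lrrtm4 had 0 to 30 counts in a library, and 25.1% of its exon bases lie under Gm4409 on the other strand, so that its log2 fold change of -0.69 (SE 0.78) says little.

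The Lrfn genes, which encode postsynaptic adhesion proteins that bind receptor phosphatases, gave no call either. Lrfn4, the most abundant per length of exon (Lrfn1 was with the longest transcript as the length), had 826, 899 and 679 normalized counts in the controls, against 816, 815 and 738 in Tlx3cko DRGs, and its log2 fold change was -0.02 (SE 0.11). Lrfn2 had 207, 162 and 172 against 244, 226 and 216, separate groups with a log2 fold change of 0.34 (SE 0.15, adjusted p = 0.314). Lrfn3 had 405, 385 and 349 against 447, 420 and 408, which were separate by a narrow margin (0.16, SE 0.11, adjusted p = 0.595). Lrfn1 and Lrfn5 had log2 fold changes of 0.01 and -0.02, with SEs of 0.10 and 0.09.

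Slitrk genes, which act on neurite growth and synapse formation, gave no call among 6. Slitrk1 came nearest, with 416, 303 and 341 normalized counts in the controls, against 527, 505 and 420 in Tlx3cko DRGs (log2 fold change 0.45, SE 0.14, adjusted p = 0.102). Its lowest Tlx3cko library was just above control replicate 1, and without that control it passed at an adjusted p of 0.0366 (0.0151 to 0.369 over the 15 alternatives). Slitrk4 had 341, 354 and 392 against 426, 434 and 428 (0.24, SE 0.11, adjusted p = 0.335), and Slitrk5 had 501, 465 and 582 against 453, 450.1 and 458 (-0.19, SE 0.11, adjusted p = 0.524). Both were separate between the genotypes, in opposite directions.

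Slitrk3, the most abundant of the family per length, had 687, 522 and 731 normalized counts in the controls, against 770, 751 and 702 in Tlx3cko DRGs, which overlapped (log2 fold change 0.20, SE 0.12). Slitrk2 ranged from 101 to 141 (-0.19, SE 0.19). Slitrk6 had 3 to 13 counts in a library and an SE of 0.83, too few to compare.

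Among NCAMs, the rarer member moved. Ncam2, known from the bundling of olfactory axons (chromosome 16, from 81200697 to 81626828, plus strand), had 306, 177 and 272 normalized counts in the controls, against 356, 449 and 495 in Tlx3cko DRGs. The means of 251 ± 66.9 and 433 ± 70.7 differed by a log2 fold change of 0.78 (SE 0.19, adjusted p = 0.0321). Ncam1, the widespread neural cell adhesion molecule, had 2131, 2274 and 2399 against 2006, 2324 and 2266 and a log2 fold change of -0.05 (95% interval -0.23 to 0.14).

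The L1 family was divided. Beside the higher Nfasc and Nrcam, L1cam had 8221, 7549 and 8094 normalized counts in the controls, against 7211, 7540 and 7449 in Tlx3cko DRGs, lower by a very small margin (log2 fold change -0.10, SE 0.07, adjusted p = 0.564). Chl1, the close homologue of L1 that acts in axon growth, had 936, 860 and 1440 in control and 942, 903 and 738 in Tlx3cko libraries. Control replicate 3 stood far above the rest, and the value turned on it: the log2 fold change was -0.33 (SE 0.17, adjusted p = 0.408) with all libraries, -0.06 without that library, and -0.74 (adjusted p = 0.0168, the lowest of 15 alternatives that reach 0.898) with sex as a term.

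Dscaml1, a member of the DSCAM pair by which neurites of like cells avoid each other, had the largest positive log2 fold change of the 42 genes. It lies on chromosome 9 from 45426628 to 45753712 (plus strand) and had 64.8, 82.8 and 71.0 normalized counts in the controls, against 132, 140 and 126 in Tlx3cko DRGs. The libraries of each genotype were close together, and the log2 fold change was 0.86 (SE 0.19, adjusted p = 0.0221) at a low level of 0.55 and 0.995 CPM per kb. Dscam had 555, 444 and 502 against 502, 631 and 587, overlapping groups with a log2 fold change of 0.20 (SE 0.12).

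The Cadm family held the only gene called lower in this fit. Cadm1, a homophilic adhesion protein of axons and synapses (chromosome 9, from 47530173 to 47857637, plus strand), had 5238, 5291 and 6220 normalized counts in the controls, against 4488, 4232 and 4611 in Tlx3cko DRGs. All Tlx3cko libraries were below the controls, whose replicate 3 was highest, with means of 5583 ± 552 and 4443 ± 193 and a log2 fold change of -0.33 (SE 0.08, adjusted p = 0.0402).

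Cadm2, the sister gene (chromosome 16, from 66655421 to 67620908, minus strand), went the other way, with 477, 287 and 307 normalized counts in the controls, against 637, 562 and 623 in Tlx3cko DRGs. Control replicate 1 was well above the other controls but still below every Tlx3cko library, and the log2 fold change was 0.77 (SE 0.17, adjusted p = 0.0182). Cadm3 had 8602, 9158 and 9384 against 9550, 9553 and 9305 (0.07, SE 0.07), and Cadm4, the Schwann cell partner of Cadm3, ranged from 2097 to 2508 with a log2 fold change of -0.06 (SE 0.08). Both of these abundant genes were within 1 SE of no change.

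**Figure D3:**
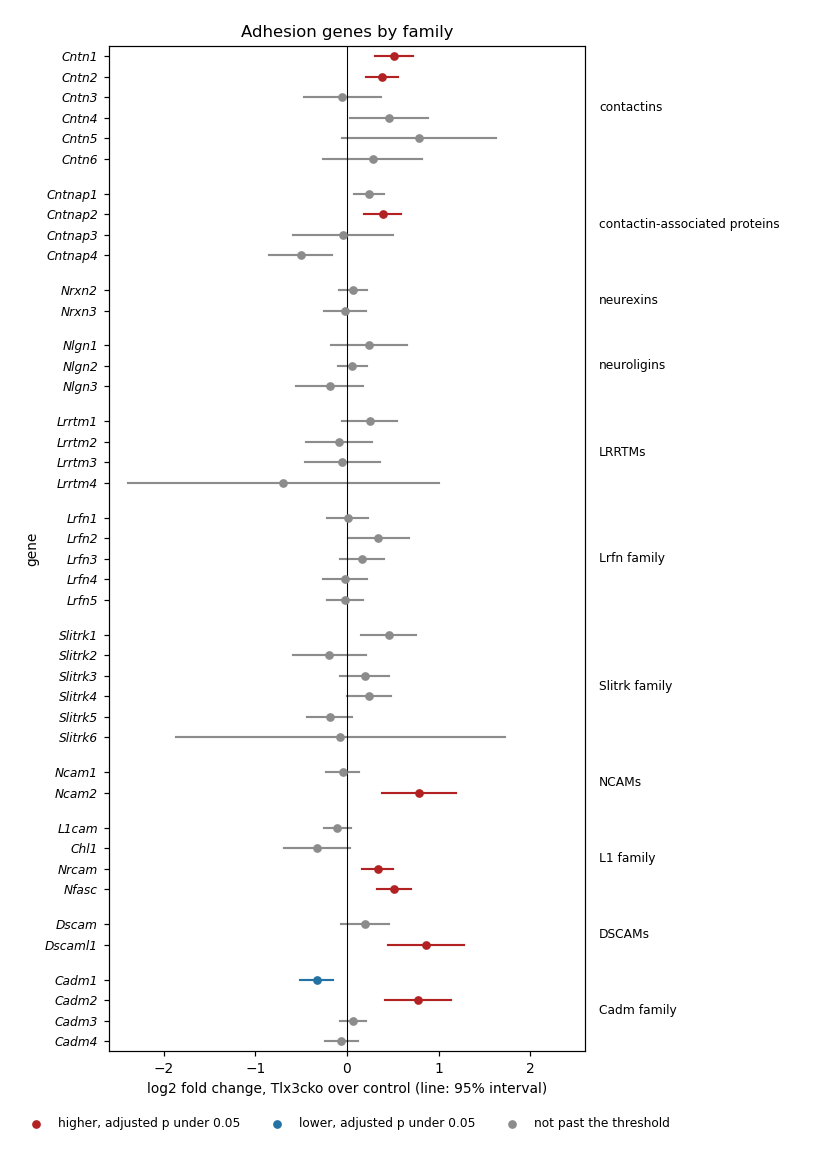
Log2 fold change of Tlx3cko over control (x axis) of each of the 42 adhesion genes (y axis, by family), with its 95% interval as a line; red is higher and blue lower at an adjusted p under 0.05, grey not past the threshold. The 8 higher genes sit in 6 of the 11 families, while neurexins, neuroligins, LRRTMs, Lrfn and Slitrk genes hold no called gene.

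How firmly each call stood depended on the libraries. Cntn1 and Nfasc passed the threshold whichever of the 6 libraries was dropped, at adjusted p values of at most 0.0457 and 0.0299. Cntn2 passed in 4 of these fits, Ncam2, Nrcam and Cadm2 in 2, and Cntnap2, Dscaml1 and Cadm1 in 1. The number of higher members went down to 3 when control replicate 2 or 3 was left out, to 3 when Tlx3cko replicate 2 or 3 was, and to 5 without Tlx3cko replicate 1. Across these fits the log2 fold change of each of the 9 called genes kept its sign, from 0.39 to 0.58 for Cntn1 and from 0.45 to 0.58 for Nfasc.

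With sex as a term, the genotype effect rests on control replicate 3, the male control, against the 3 Tlx3cko libraries, and SEs were 1.15 to 1.51 times as large. The log2 fold changes were then 0.50 for Cntn1 (adjusted p = 0.116), 0.52 for Nfasc (0.0611), 0.28 for Cntn2 (0.325), 0.45 for Cntnap2 (0.144) and 0.31 for Nrcam (0.285). For Ncam2 the value was 0.67 (0.368), for Dscaml1 0.90 (0.185) and for Cadm2 0.98 (0.0583), again adjusted p in parentheses. Cadm1 was the exception: it fell by 0.49 on the log2 scale and still passed (adjusted p = 0.018; 0.0026 to 0.217 over the 15 alternatives). All 8 higher genes kept a positive value. For 7 of them (Cadm2 excepted, which reached 0.0868) this was the highest adjusted p over the 15 alternatives, and the lowest ran from 5.75e-08 for Cntn1 to 0.0069 for Dscaml1.

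**Figure D4:**
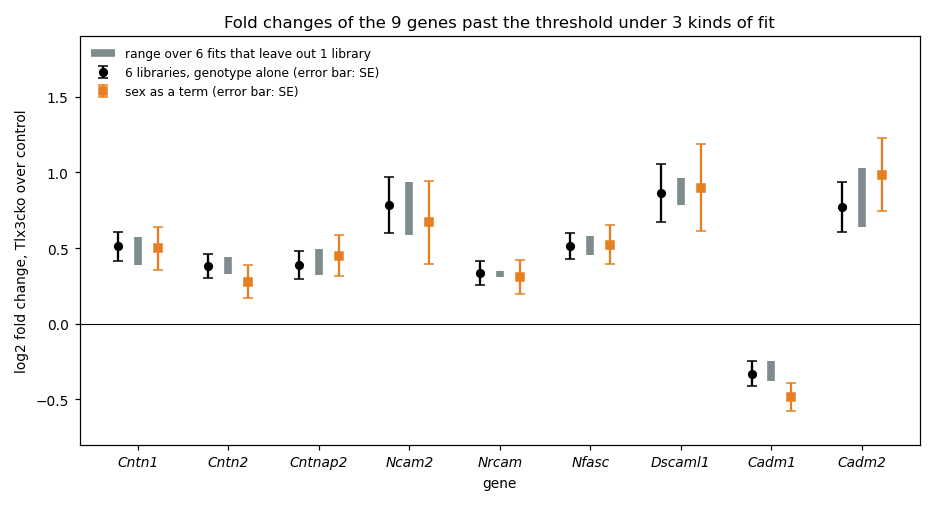
Log2 fold change of Tlx3cko over control (y axis) of the 9 genes past the threshold (x axis): circles, all 6 libraries with genotype alone; grey bars, the range over the 6 fits that leave out 1 library; squares, sex as a term. Error bars are 1 standard error; each gene stays on its side of 0 in every fit shown, with Cntn1 at 0.51 and at 0.50 with the sex term.

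Markers of the cells in a ganglion are given beside these values. One list held markers of the itch and MrgprD classes of nociceptors and Th, a marker of low-threshold touch neurons. Of these 7 markers 7 were lower, beside 2.56% of all genes tested. Their summed level in CPM per kb was 181 to 265 in the controls and 31.9 to 39.5 in Tlx3cko DRGs. Among markers of peptidergic and myelinated neurons, Calca, the gene of the peptide CGRP, rose by a log2 fold change of 0.47 (adjusted p = 0.0014). Nefh, the heavy neurofilament of large myelinated axons, rose by 0.36 (adjusted p = 0.0053) and Pvalb, a marker of proprioceptors, by 0.59 (adjusted p = 0.0116), while Tac1, Ntrk2 and Ntrk3 did not pass the threshold. Pan-neuronal markers summed to 3598 to 3890 against 3685 to 4144, and 1 of 7 (Syt1) was lower.

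Among glial markers, 0 of 6 of satellite glia and 1 of 6 of Schwann cells (Egr2, higher) passed the threshold, with overlapping sums in both lists. Fibroblast markers were lower (3 of 4, sums 33.5 to 37.6 against 22.9 to 27.5). Of the endothelial markers 1 of 3 was higher, and of the skeletal muscle markers 1 of 6. Over all genes tested, 1.69% were called higher and 2.56% lower. Muscle sums ran from 2.76 (replicate 3) to 54.1 (replicate 1) in the controls and from 39.6 to 71.5 in Tlx3cko libraries. None of 4 immune and 3 blood markers passed, and oligodendrocyte markers were at or near 0, with Opalin at 0 in every library. The part of these shifts in the values of the adhesion genes was not tested.

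Some binding partners of these molecules were also called. Of 54 partner genes, 53 held enough counts (Nxph2 did not). In Tlx3cko DRGs 9 were higher and 3 lower, which is 22.6% called beside 4.25% of all genes tested. Their median log2 fold change was 0.17. The partners were chosen with earlier results of these data known, so this share is not read as an excess. Among tested genes past both limits of span and level used above, 10.4% were called in either direction. Partners were not compared with genes of like span and level.

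Cbln1, a secreted ligand that bridges neurexins to receptors of the postsynaptic membrane, had 296, 224 and 209 normalized counts in the controls, against 66.4, 61.7 and 53.1 in Tlx3cko DRGs. No library came near the other group, and it fell by 2.00 on the log2 scale (SE 0.20, adjusted p = 5.2e-05). Nxph3, a secreted neurexophilin that also binds neurexins, had 170.5, 207 and 229 against 102, 89.2 and 105, a log2 fold change of -1.03 (SE 0.18, adjusted p = 0.004). Of 11 neurexin partners with enough counts 2 were lower, beside 2.56% of all genes tested, in a list chosen with earlier results known. The median log2 fold change of these 11 was 0.0145. Nrxn2 and Nrxn3 did not pass the threshold.

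In the same list, Mdga1, which binds neuroligins and keeps neurexins from them, was higher by 0.38 on the log2 scale (SE 0.08, adjusted p = 0.0209). Ptprd, a presynaptic receptor phosphatase that Slitrk and Lrfn-type proteins bind, was 1 of 3 phosphatases called. Its normalized counts were 199, 153 and 219 in control and 294.5, 434 and 400 in Tlx3cko libraries (log2 fold change 0.98, SE 0.18, adjusted p = 0.0055). All Tlx3cko libraries were higher. Of 10 latrophilin, FLRT and teneurin genes 2 were higher, the teneurins Tenm1 (0.90, adjusted p = 0.0063) and Tenm3 (0.64, adjusted p = 0.0012). Among 14 other synaptic organisers only the netrin-G ligand Lrrc4c was higher (0.60, adjusted p = 0.0275). Over all genes tested 1.69% were higher, and these lists too were chosen with earlier results known.

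Of 15 genes that work with contactins and Cntnap proteins at the axon-glia junction, 4 were higher and 1 lower. This is 33.3% called, beside 4.25% of all genes tested, in a list chosen with earlier results known. Epb41l3, whose protein anchors Cntnap proteins to the cytoskeleton, had 10080, 9059 and 10653 normalized counts in the controls, against 12040, 12470 and 12659 in Tlx3cko DRGs (log2 fold change 0.32, SE 0.07, adjusted p = 0.0274). Adam23, a receptor of the secreted Lgi proteins that regulate axonal potassium channels, was higher by 0.44 (adjusted p = 0.0191). Its ligands were divided, with Lgi2 (0.38, adjusted p = 0.0258) and Lgi3 (0.34, adjusted p = 0.0349) higher. Lgi1 had 1067, 1139 and 1000 against 722, 698 and 720.4 and fell by 0.58 on the log2 scale (SE 0.09, adjusted p = 0.0019).

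With sex as a term, the log2 fold changes of 9 of the 12 called partners no longer passed: 0.77 for Ptprd (adjusted p = 0.178), 0.93 for Tenm1 (0.0902), 0.39 for Mdga1 (0.181), 0.41 for Lrrc4c (0.449), 0.22 for Epb41l3 (0.425), 0.45 for Adam23 (0.167), -0.49 for Lgi1 (0.0626), 0.42 for Lgi2 (0.15) and 0.39 for Lgi3 (0.15). All 9 kept their direction. Tenm3 (0.59, adjusted p = 0.0444), Cbln1 (-1.79, adjusted p = 0.0018) and Nxph3 (-1.21, adjusted p = 0.0133) still passed, and these 3 passed in all 15 alternatives (adjusted p of at most 0.0444, 0.0018 and 0.0282). The higher partners numbered 3 when control replicate 2 or either of Tlx3cko replicates 2 and 3 was left out, and 5 without control replicate 3.

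**Figure D5:**
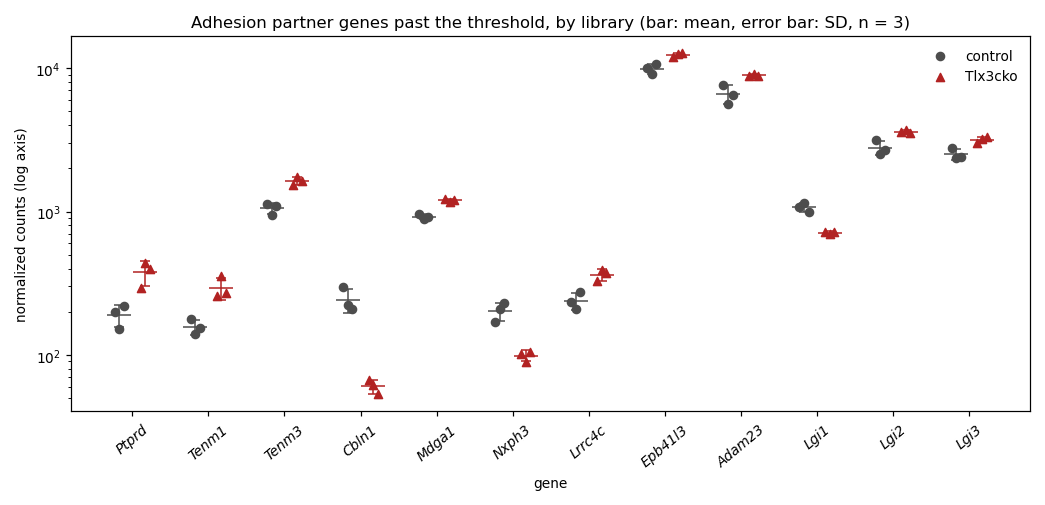
Normalized counts (y axis, log scale) of the 12 partner genes past the threshold (x axis); each point is 1 library, circles for control and triangles for Tlx3cko, with the mean as a bar and the SD as error bar (n = 3). Cbln1 shows the widest gap, with 209 or more in every control and 66.4 or less in every Tlx3cko library.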

How the data were processed

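RNA of DRGs was purified with RNeasy kits, made into NEBNext Ultra libraries and sequenced as 150 bp paired-end reads on a HiSeq instrument. The authors deposited raw read counts per gene, without normalization, as a table of 47937 rows. Their processing notes name STAR 2.5.2a and mm10; the counting program, the annotation and the use of strand are not given in the sources used here. Gene names, positions and exon lengths came from GENCODE M21 (GRCm38). Of the 47937 rows, 208 carried no Ensembl mouse gene identifier. Like all rows, they entered the fit where they held at least 10 counts in total.

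Counts were analysed in R 4.3.3 with edgeR 4.0.16: TMM, genes with at least 10 counts in total (20006), glmQLFit and glmQLFTest on genotype, Benjamini-Hochberg adjustment over all genes tested, threshold 0.05. Standard errors were derived from the fold change and its F statistic. Library totals were 11458299 to 18775628 counts; precision is set by 3 libraries a group. Replicates differed by more than counting noise (chi-square per degree of freedom 4.32 to 10.1). With 3 against 3 an exact permutation test of 1 gene cannot give a p below 0.1. Annotated transcripts were searched for copies of member sequence with blastn 2.17.0 (98% identity, 100 bases), and matches of members were to overlapping genes or short stretches. The fit was checked on simulated counts that held changes larger than those of the called members and no difference in sex. The check therefore does not cover changes of their size or the unbalanced sexes.

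Every member is described; values in every library are given for members called, members without overlap and the most abundant member per length of each family, and partners are named where called. Members, partner lists and markers were chosen with earlier results of these data known. Alternatives used other normalizations, filters, DESeq2 1.42.0, limma 3.58.1 (voom), the replicate number as a block, sex as a term, and each library left out. The sex of a library was read from Xist and Ddx3y counts. One result of the marker lists is not reported here.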

Additional observations from a re-analysis of the deposited data

How the results depend on the processing

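The 9 called members kept their direction under all 15 alternatives. With sex as a term the higher members numbered 0 and the lower 2, the higher partners 1, and Tlx3 stood at -0.376 (adjusted p = 0.223). Leaving out 1 library gave 3 to 9 higher and 0 to 1 lower members, 3 to 10 higher partners and a log2 fold change of Tlx3 of -0.537 to -0.387. A filter of at least 1 count gave 3 lower members and 1529 called genes, beside 851; the sex term gave 487 and leaving out 1 library 488 to 938. With the replicate number as a block, 7 members were higher and 1 lower, Nrcam and Lgi3 being lost; same-numbered libraries did not deviate together (correlations -0.0674 to -0.0136). Some members that did not pass changed sign. Nrxn3 was 0.0711 and Lrfn4 0.218 with the sex term, and Lrfn1 -0.00073 by library totals alone. Slitrk6 was 0.18 by limma-voom, 0.0851 with the replicate block and 0.943 with the sex term. Leaving out 1 library gave -0.14 to 0.107 for Cntn3, -0.209 to 0.147 for Cntnap3, -0.0857 to 0.0869 for Nrxn3, -0.252 to 0.0818 for Lrrtm2, -0.153 to 0.0829 for Lrrtm3, -0.0904 to 0.083 for Lrfn1, -0.127 to 0.0724 for Lrfn4, -0.0518 to 0.0331 for Lrfn5, -0.566 to 0.985 for Slitrk6, -0.0906 to 0.0174 for Ncam1 and -0.128 to 0.0088 for Cadm4. The cause of these changes was not tested. Counts per library limit the rarest members, Lrrtm4 and Slitrk6.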
